A study of Mus musculus with 6 samples.

Results

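The autophagy genes of double-positive thymocytes were examined in miR181a1/b1 knockout and wild type mice. This group consists of 33 listed genes of the autophagy machinery, from the starting kinase to the cargo receptors, and its rows were found in the table by symbol. Of the 33 symbols, 31 named a row among the 37867 gene models of the deposited table. Atg13 and Ambra1 were found only under the older names D2Ertd391e and D030051N19Rik, so their values are given but they are not counted among the 31. Each of them had 1 row.

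The study compared CD4+CD8+ thymocytes of miR181a1/b1 knockout mice with those of wild type mice, both of the C57bl6 strain. The mice carry no other allele or treatment named in the labels, and their age is not given there. Cells were sorted, RNA was prepared with Trizol or an RNeasy kit (which library had which is not stated), and 3 libraries were sequenced per genotype. The table gives 1 value per genotype in FPKM (fragments scaled to transcript length and to the number of mapped fragments), so the 3 libraries of a genotype cannot be seen apart and no SD can be given. The labels do not say whether the 3 came from separate animals, so any spread behind the deposited p-values may be technical.

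Autophagy is the route by which a cell encloses part of its cytoplasm in a double membrane, the autophagosome, and passes it to the lysosome. A kinase complex starts the process, a lipid kinase complex built on Beclin 1 marks the site, lipid transfer and scaffold proteins extend the membrane, and a pair of ubiquitin-like conjugation systems attach ATG8 proteins (the LC3 and GABARAP families) to it. In the T lineage, loss of Atg5 or Atg7 is known to lower the survival of mature T cells and to leave them with excess mitochondria. The double-positive stage is where thymocytes are selected on their receptor, and miR-181a is known there for setting the strength of receptor signals.

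The deleted genes encode a pair of microRNAs with one seed, the bases 2 to 8 that pair with target transcripts. Their mature forms (RefSeq, GRCm38.p6, chromosome 1, plus strand, from 137966468 to 137966490 and from 137966650 to 137966673) are shown 5′ to 3′. Capital letters mark the seed, whose complement was searched in the transcripts.
miR-181a-5p: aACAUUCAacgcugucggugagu
miR-181b-5p: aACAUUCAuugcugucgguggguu

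Other genes of the family are not named as deleted in the labels. Mir181a-2 and Mir181b-2 on chromosome 2 encode the same mature sequences, and Mir181c and Mir181d on chromosome 8 have the same seed. Whether these act on the matches below in the knockout was not tested. The complement of the seed, TGAATGT, was searched on the sense strand of the 3′ UTRs of 1 reference transcript per gene (GENCODE M21, GRCm38). It occurred 5 times, in 4 of the 33 genes (12.1%), against 17.5% of 8992 tested coding genes with a level of at least 1 FPKM. The 33 genes were not held to these limits, so the shares are over unlike sets. Wipi1, Optn and Atg4c lie under 1 FPKM and Ulk1 had no test, and none of them has a match. Atg5 held 2 matches, and Atg4d, Sqstm1 and Nbr1 held 1 each. Human ATG5 has been reported in the literature as a target of miR-181a. The 30-base windows are shown because they hold the full seed matches found in these 3′ UTRs, and the capitals mark the match. Shorter matches, coding sequence and other 3′ ends were not searched.
Atg5, first (chr10:44364188-44364217, plus strand): tagcttgctgtccacatTGAATGTcaaccc
Atg5, second (chr10:44364260-44364289, plus strand): agattcaataataaagaTGAATGTtttctt
Atg4d (chr9:21275613-21275642, plus strand): ttgaggcagggtttgttTGAATGTctacct
Sqstm1 (chr11:50200616-50200645, minus strand): gtgcatgaggagagtttTGAATGTgcatat
Nbr1 (chr11:101581135-101581164, plus strand): tttttaaagattaacctTGAATGTttccaa
A match is a run of letters and not a shown site. The Atg4d match lies at base 2194 of a reference 3′ UTR of 4336 bases, and whether thymocytes use that 3′ end was not tested.

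The identity of the cells and the state of the table were checked first. Cd4 stood at 907 FPKM in knockout cells against 732 FPKM in wild type cells, Cd8a at 836 and 906 FPKM and the recombinase gene Rag1 at 1193 and 1220 FPKM, and none of the 9 double-positive markers passed the threshold, a q (a p-value adjusted for the number of tests) under 0.05 in the authors' deposited table. Of 18 listed markers of B, myeloid, dendritic, erythroid and thymic epithelial cells, 17 were found, with 2.57 FPKM as their highest level (Lyz2, in the wild type). Their summed level per list lay between 0.216 and 3.29 FPKM in knockout cells and between 0.314 and 6.29 FPKM in wild type cells, led by Cd79a (B cells), Lyz2 (myeloid), Siglech (dendritic), Hbb-b1 (erythroid) and Epcam (epithelium), and 11 of the 17 were under 0.5 FPKM in both. Itgam and Epcam were lower in the knockout past the threshold, and Foxn1 was listed at 0 there. Of thymocytes at another stage, the 3 double-negative markers summed to 33.6 against 6.52 FPKM, nearly all of it from Il2ra at 29.4 against 2.89 FPKM, which was higher in the knockout past the threshold. The other 2 did not pass, with Cd44 at 3.81 against 2.96 FPKM and Kit at 0.370 against 0.672 FPKM. The part of any of these cells in the results below was not tested. In sorted cell pools a lower level can mean fewer cells with the transcript or less of it per cell, and these cannot be told apart. A transcript at the targeted locus, listed as AK076660 (chromosome 1 from 139794044 to 139874930, mm9), had 156 FPKM in knockout cells against 3.35 FPKM in wild type cells. The model is far longer than the microRNA genes, so its level does not check the deletion.

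Of the 31 matched autophagy genes, 28 were tested by the authors, 4 of them were lower in the knockout past the threshold and none was higher. The 4 were Atg2a, Atg4d, Map1lc3a and Map1lc3b. An unadjusted p under 0.05 was listed for 7 of the 28 in the authors' deposited table. The share of all models with such a p is not given here, so this count is not a result. Over all 13834 tested models, 17.1% passed the q threshold, 15.3% as lower and 1.79% as higher in the knockout. The share of the autophagy genes, 14.3%, lies near that background and is therefore not a result about this group. The median log2 ratio of the 28 was -0.19, beside -0.17 over all tested models, and 20 of the 28 (71.4%) had a lower value in the knockout, beside 59.6% of all tested models. Set against the median of all models, 3 were lower (Atg2a, Atg4d and Map1lc3a) and 1, Rb1cc1, was higher past the threshold. The share of all models past the threshold in that setting is not given here, so these counts are not a result. With the dependence on GC content and length taken out, Rb1cc1 stood at a log2 ratio of 0.18 and did not pass.

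**Figure D1:**
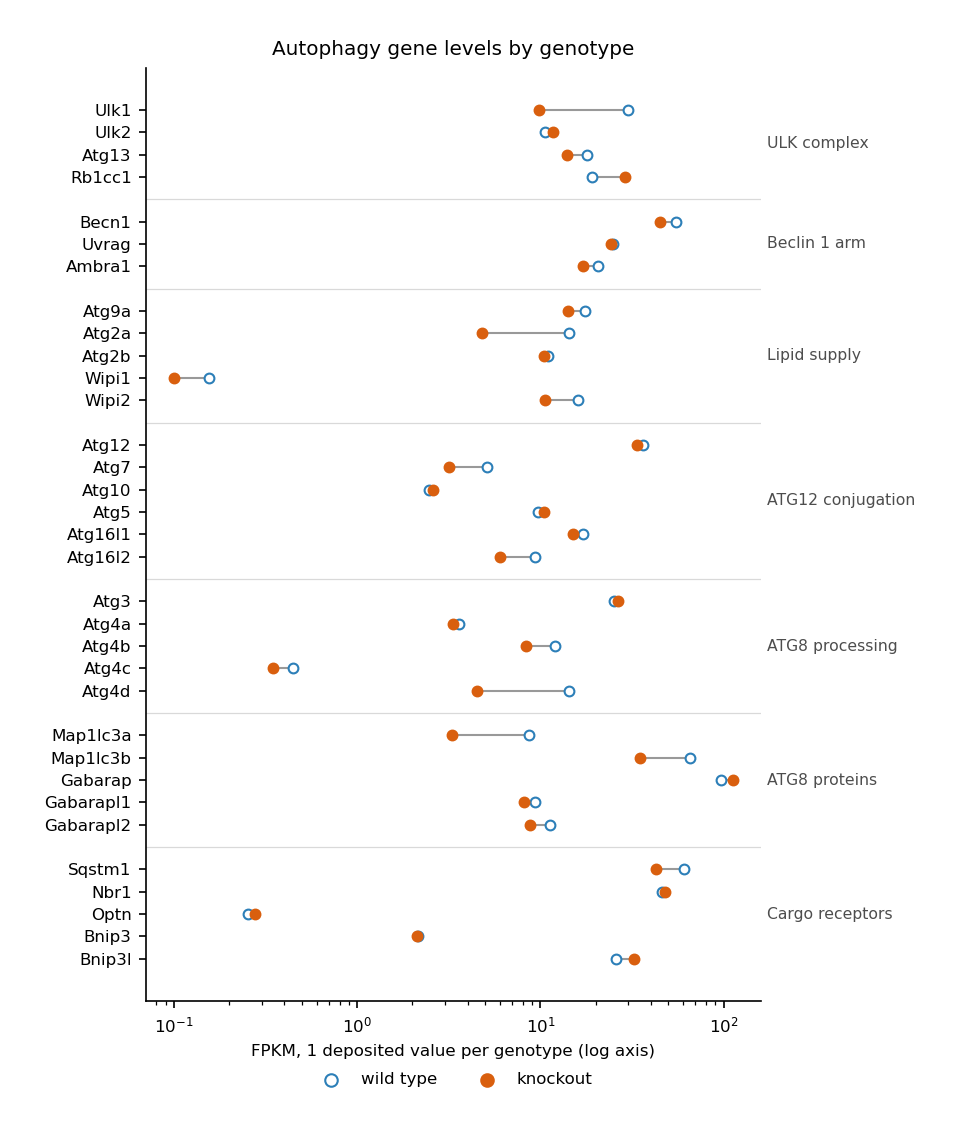
Levels of the 33 autophagy genes in FPKM (log axis), with 1 deposited value per genotype (open circles wild type, filled circles knockout), in blocks by role; there are no error bars because the table gives no values of single libraries. Levels run from 0.09996 FPKM for Wipi1 to 112 FPKM for Gabarap, both in the knockout, and the widest gaps are those of Ulk1, Atg2a, Atg4d and Map1lc3a.

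Every ratio that follows puts the knockout above the wild type. The error of each is the standard error (SE) implied by the deposited test statistic, obtained as the log2 ratio over that statistic, and its median was 0.29 for the 28 tested genes. Counts per role below stand beside the 17.1% of all tested models past the threshold, 15.3% as lower. With so few genes per role, they do not set one role apart from another.

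In the kinase complex that starts autophagy, the gene with the widest gap had no test. Ulk1, the kinase itself (chromosome 5 from 111213507 to 111239100, mm9), had 9.88 FPKM in knockout cells against 30.2 FPKM in wild type cells, a log2 ratio of -1.61. The authors marked its test as failed, so this gap has neither an error nor a p. Its close relative Ulk2 stood at 11.6 against 10.6 FPKM (log2 0.14, implied SE 0.25). In the wild type Ulk1 was thus 2.85 times the level of Ulk2, and in the knockout 0.849 times. Rb1cc1, the scaffold of the complex also known as FIP200, had the highest ratio of the group, at 28.9 against 19.2 FPKM (log2 0.59, implied SE 0.23, the authors' deposited table gives q = 0.0604). It did not pass the threshold as deposited. The adaptor Atg13, under its older name, stood at 14.0 against 17.9 FPKM (log2 -0.36, implied SE 0.25).

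None of the 3 Beclin 1 genes passed the threshold, beside 17.1% of all tested models. Becn1, which encodes Beclin 1, stood at 45.1 FPKM in knockout cells against 55.0 FPKM in wild type cells (the authors' deposited table gives q = 0.532). Uvrag, a partner of Beclin 1 in the lipid kinase complex, stood at 24.4 against 24.8 FPKM. Ambra1, a regulator of Beclin 1 listed under its older name, stood at 17.1 against 20.6 FPKM. The log2 ratios of these 3 lay between -0.28 and -0.02, each with an implied SE of 0.25 to 0.26.

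Of the genes that supply lipid to the growing membrane, Atg2a fell and its paralog Atg2b did not pass. Atg2a, a lipid transfer protein, stood at 4.82 FPKM in knockout cells against 14.3 FPKM in wild type cells, which is 2.96-fold lower (log2 -1.57, implied SE 0.42, the authors' deposited table gives q = 0.00218). Atg2b stood at 10.5 against 10.9 FPKM (log2 -0.06, implied SE 0.28). Atg2a was thus the more abundant of the paralogs per length in the wild type, at 1.30 times the level of Atg2b, and the less abundant in the knockout, at 0.459 times. With the dependence on GC content and length taken out, Atg2a no longer passed (log2 -0.37), and its gap to Atg2b went from -1.51 to -0.40. The model of Atg2a covers chromosome 19 from 6241546 to 6328297 (mm9), a span that it has in common with 4 other models. The neighbour Ehd1 in that span stood at 3.40 against 6.53 FPKM (the authors' deposited table gives q = 0.292). The division of reads among models of one span is unknown here, so the value of Atg2a is uncertain to that extent.

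Wipi2, a scaffold that binds the lipid mark, stood at 10.6 against 16.1 FPKM (log2 -0.59, implied SE 0.31, the authors' deposited table gives q = 0.191). Its relative Wipi1 was near the floor, at 0.09996 against 0.155 FPKM, and was not tested. Atg9a, the membrane protein of the vesicles that seed the autophagosome, stood at 14.1 against 17.6 FPKM with a wide implied SE of 0.54. Neither Wipi2 nor Atg9a passed.

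None of the 6 genes of the ATG12 conjugation system passed, beside 17.1% of all tested models. Atg5, the acceptor of ATG12 and the carrier of 2 seed matches, stood at 10.4 FPKM in knockout cells against 9.74 FPKM in wild type cells (log2 0.09, implied SE 0.28, the authors' deposited table gives q = 0.907). The ubiquitin-like Atg12 stood at 33.6 against 36.4 FPKM. Atg10, the enzyme that transfers ATG12, stood at 2.59 against 2.47 FPKM. These 3 were nearly level between the genotypes. Atg7, the activating enzyme of both conjugation systems, stood at 3.16 against 5.10 FPKM (log2 -0.69, implied SE 0.34, the authors' deposited table gives q = 0.161). Atg16l2 stood at 6.04 against 9.36 FPKM (log2 -0.63, implied SE 0.33). Its paralog Atg16l1, which places the conjugate on the membrane, stood at 15.1 against 17.1 FPKM (log2 -0.18, implied SE 0.33).

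Among the enzymes that process ATG8 proteins, the protease gene Atg4d fell. It stood at 4.499 FPKM in knockout cells against 14.4 FPKM in wild type cells, which is 3.20-fold lower (log2 -1.68, implied SE 0.53, the authors' deposited table gives q = 0.0131). Its log2 ratio was the lowest of the tested autophagy genes, and with the dependence on GC content and length taken out it was -1.15 and did not pass. Atg4d and the ribosome biogenesis gene Kri1 have the same span in the table, chromosome 9 from 21069742 to 21092395 (mm9), where Kri1 stood at 18.9 against 27.4 FPKM (the authors' deposited table gives q = 0.223). Another model there, AK216578, was listed at 0 for the knockout, against 1.94 FPKM for wild type. How reads were divided among these models is unknown, so the value of Atg4d is uncertain to that extent.

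The other proteases of the family did not pass. Atg4b stood at 8.38 against 11.99 FPKM (log2 -0.52, implied SE 0.27), and Atg4a at 3.35 against 3.57 FPKM. Atg4c stood at 0.348 against 0.446 FPKM, the lowest level of a tested autophagy gene. Atg4d stood above Atg4b in the wild type and at 0.537 times its FPKM in the knockout. The log2 ratio of Atg4d minus that of Atg4b was -1.16, with an SE of 0.595 if the errors of the genes are independent. With the dependence on GC content and length taken out, this difference was -0.86. Atg3, the enzyme that attaches ATG8 proteins to lipid, stood at 26.5 against 25.1 FPKM (log2 0.08, implied SE 0.26).

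Of the ATG8 genes, both LC3 genes fell, beside 15.3% of all tested models, and none of the 3 GABARAP genes passed. Map1lc3b, the most used marker of autophagosomes, stood at 35.1 FPKM in knockout cells against 65.3 FPKM in wild type cells, which is 1.86-fold lower (log2 -0.90, implied SE 0.28, the authors' deposited table gives q = 0.0130). Map1lc3a stood at 3.29 against 8.68 FPKM, which is 2.64-fold lower (log2 -1.40, implied SE 0.37, the authors' deposited table gives q = 0.00186). Centred on the median of all tested models, Map1lc3b no longer passed at a log2 ratio of -0.73. With the dependence on GC content and length taken out, neither LC3 gene passed, Map1lc3b standing at -0.45 and Map1lc3a turning to 0.41.

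Gabarap was the most abundant autophagy gene, at 112 FPKM in knockout cells against 96.8 FPKM in wild type cells (log2 0.21, implied SE 0.24, the authors' deposited table gives q = 0.647). Gabarapl1 stood at 8.08 against 9.33 FPKM and Gabarapl2 at 8.78 against 11.3 FPKM, with log2 ratios of -0.21 and -0.36. Summed over the 5 ATG8 genes the level was 167 FPKM in knockout cells against 191 FPKM in wild type cells. Gabarap made up 67.0% of that sum in knockout cells against 50.6% in wild type cells, and Map1lc3b 20.99% and 34.1%, shares that have no error because single libraries are not seen. The log2 ratio of Gabarap exceeded that of Map1lc3b by 1.11, with an SE of 0.37 if the errors of the genes are independent. This pair was chosen after its values were seen, and the difference is a description with no test.

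The LC3 genes lie at chromosome 2 from 155102199 to 155103806 and at chromosome 8 from 124112354 to 124122037 (mm9). The span of Map1lc3b also holds the antisense model linc-Map1lc3b-AS, at 2.77 against 2.24 FPKM. The library kit (TruSeq RNA, per the labels) does not keep strand, so reads of the gene and its antisense model cannot be told apart where they overlap. Because reads of close copies can be divided between them, the longest coding stretch in which both LC3 genes encode the same residues is shown, codons 30 to 63 of the reference transcripts (GRCm38, chr2:155277005-155277190 and chr8:121593537-121596078, plus strand, introns left out), with the differing bases in capitals.
Map1lc3a: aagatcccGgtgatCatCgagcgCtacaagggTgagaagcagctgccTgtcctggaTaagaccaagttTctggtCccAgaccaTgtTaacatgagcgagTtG
Map1lc3b: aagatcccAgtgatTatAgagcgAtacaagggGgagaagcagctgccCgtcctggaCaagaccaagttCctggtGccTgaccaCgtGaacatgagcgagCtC
The stretches differ at 14 of 102 bases, 13 of them at the last position of a codon. Over the 121 codons compared, 99 encode the same residue.

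None of the cargo receptors passed, beside 17.1% of all tested models, and their levels spanned a wide range. Sqstm1, which encodes the ubiquitin-binding receptor p62 and carries a seed match, stood at 42.6 FPKM in knockout cells against 60.6 FPKM in wild type cells (log2 -0.51, implied SE 0.25, the authors' deposited table gives q = 0.164). Nbr1, a relative of p62 that also carries a match, stood at 47.7 against 45.9 FPKM (log2 0.06, implied SE 0.24). Bnip3l, also known as NIX, a receptor for mitochondria, stood at 32.3 against 25.8 FPKM (log2 0.33, implied SE 0.24). Its relative Bnip3 was at 2.11 against 2.14 FPKM, 15.3-fold below Bnip3l in the knockout and 12.04-fold below it in the wild type. Optn, a receptor for ubiquitin-marked cargo, was at 0.276 against 0.254 FPKM and was not tested.

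The ratios of genes with and without a seed match overlapped. The 4 tested genes with a match had a median log2 ratio of -0.23 and ranged from -1.68 (Atg4d) to 0.09 (Atg5). The 26 without one, Atg13 and Ambra1 included, had a median of -0.24 and ranged from -1.57 to 0.59. No tested autophagy gene, with or without a match, was higher in the knockout past the threshold, beside 1.79% of all tested models. At that share, a count among 4 genes could not set those with a match apart. With the dependence on GC content and length taken out, the median was 0.015 for the 4 with a match and 0.031 for 25 without.

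**Figure D2:**
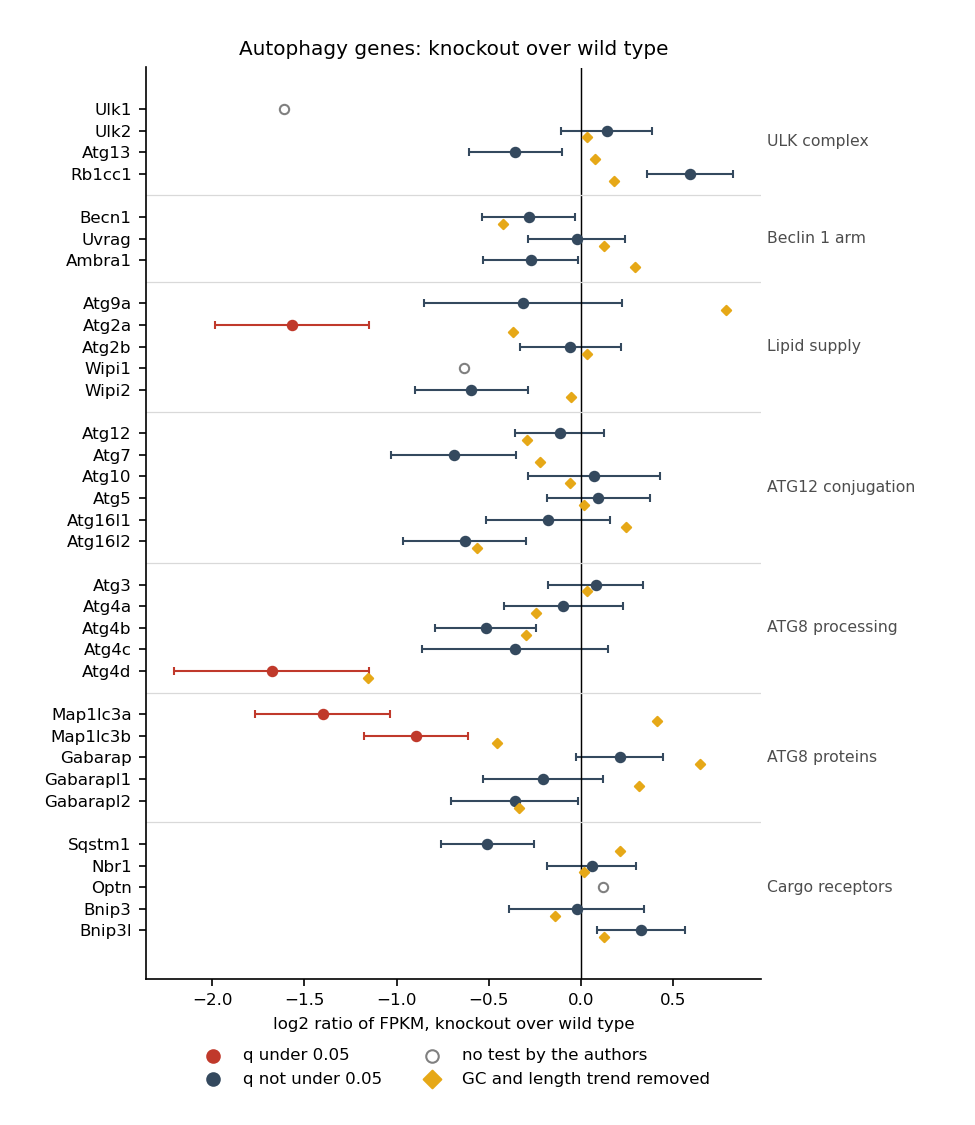
Log2 ratio of FPKM, knockout over wild type, for each autophagy gene by role; bars are ±1 implied SE, red marks a q under 0.05, open circles have no test and yellow diamonds give the ratio after the trend with GC content and length was removed. The 4 red points are Atg2a, Atg4d, Map1lc3a and Map1lc3b, with diamonds at -0.37, -1.15, 0.41 and -0.45 in that order.

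The ratios of the autophagy genes followed the base composition of their transcripts, as those of other genes in the table did. Over the 27 genes with a level of at least 1 FPKM and a usable reference transcript, Spearman's rho between GC content and log2 ratio was -0.750 and Pearson's r was -0.754, beside a rho of -0.764 over 8901 coding genes. These are correlations across genes, which were measured in the same libraries and are not independent replicates. The 13 autophagy genes with the lowest GC content had a median log2 ratio of 0.06, with 7 of them higher in the knockout and none past the threshold. The other 14 had a median of -0.51, with 1 higher (Gabarap) and all 4 of those past the threshold. Where this relation comes from was not tested.

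The genes that fell can be set beside coding genes of like GC content, grouped in 10 bins of like size. Map1lc3a (63.1% GC) and Atg2a (60.0% GC) belong to the bin of highest GC content, in which 72.1% of the genes were lower past the threshold and the median log2 ratio was -1.32. Their own ratios of -1.40 and -1.57 lie near that median. Atg9a (58.6% GC), in the same bin, stood at -0.31. Atg4d (54.5% GC) belongs to a bin in which 32.4% were lower, with a median of -0.71, and its ratio of -1.68 lies below it. Its GC content is that of a reference transcript with a 3′ UTR of 4336 bases, whose use in thymocytes was not tested. Map1lc3b (52.6% GC) belongs to a bin in which 20.2% were lower, with a median of -0.48, and its ratio was -0.90. Gabarap (50.8% GC) was at 0.21 in a bin with a median of -0.28. At the other end Rb1cc1, with 39.1% GC the lowest of the group, was at 0.59 in the bin of lowest GC content, with a median of 0.29. Ulk1, untested, has 58.0% GC, which lies in the range of the bin of highest GC content. Its relative Ulk2 (47.0% GC) belongs to a bin with a median of -0.0008.

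**Figure D3:**
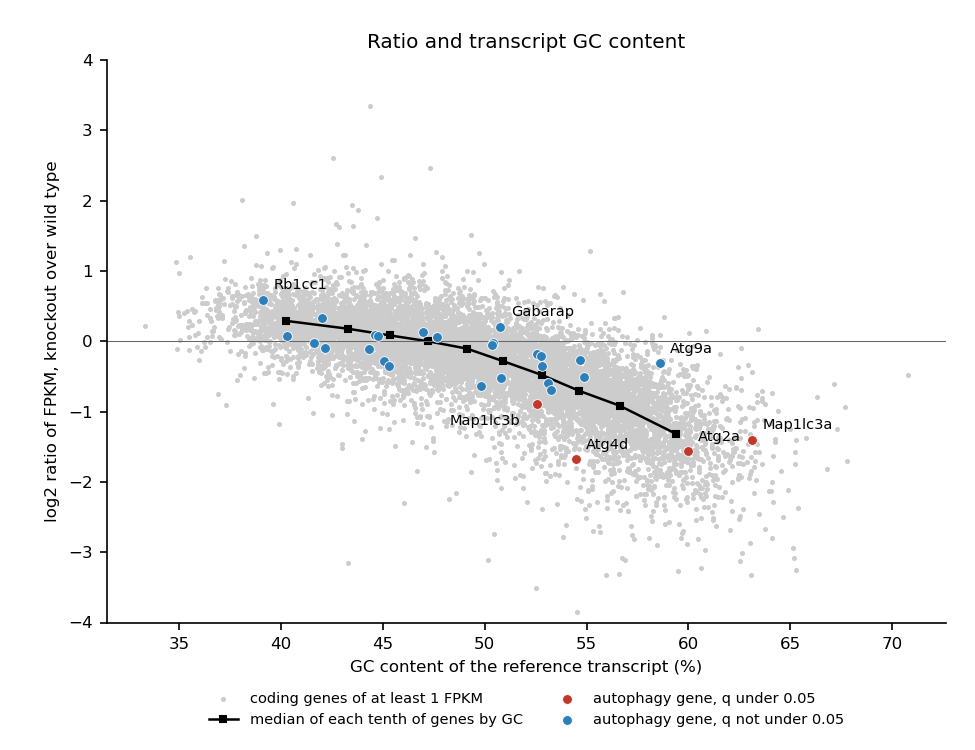
Log2 ratio of FPKM against the GC content of the reference transcript for coding genes of at least 1 FPKM (grey), for autophagy genes (red, q under 0.05; blue, q not under 0.05) and as the median of each of 10 bins of GC content (black); 6 genes beyond ±4 are not shown. The medians fall from 0.29 to -1.32, and the autophagy genes lie along them, with Atg4d below and Gabarap and Atg9a above.

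Once the dependence on GC content and length had been taken out, no autophagy gene passed (adjusted p from z values of the residuals, Benjamini-Hochberg over 8901 genes), beside 1.8% of those genes. The median of the 27 genes was 0.01, with 14 above 0 and 13 below, and their SD across genes was 0.39 where it had been 0.56. Atg4d still had the lowest value, at -1.15. Atg16l2 followed at -0.56, Map1lc3b at -0.45, Becn1 at -0.42 and Atg2a at -0.37. The highest values were those of Atg9a, at 0.78, and Gabarap, at 0.64, whose adjusted p of 0.166 was the lowest of the group. The gap between Gabarap and Map1lc3b was 1.10 after the removal, where it had been 1.11.

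The rest of the pathway was followed with a list of 37 further genes, 34 of which were tested. Of these, 4 were lower past the q threshold and none was higher, which is 11.8%, again near or under the background of 17.1%. An unadjusted p under 0.05 in the authors' deposited table was listed for 8. The share of all models with such a p is again not given, so this count is not a result either. The median log2 ratio was -0.30. Atg101, the partner of ATG13 listed as 9430023L20Rik, had the lowest ratio, at 5.27 FPKM in knockout cells against 20.7 FPKM in wild type cells (log2 -1.97, implied SE 0.32, the authors' deposited table gives q = 7.67e-08). Vps18, a subunit of the tethering complex that joins autophagosomes to lysosomes, stood at 1.51 against 5.29 FPKM (log2 -1.81, implied SE 0.35). The mitophagy kinase Pink1 stood at 20.4 against 45.6 FPKM (log2 -1.16, implied SE 0.25). Wdr45, a relative of the WIPI proteins, stood at 14.2 against 25.8 FPKM (log2 -0.87, implied SE 0.31).

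These 4 genes have reference transcripts of 58.0%, 58.0%, 59.0% and 53.3% GC, and none passed after the trend was removed, at log2 values of -0.72 for Atg101, -0.79 for Vps18, 0.05 for Pink1 and -0.26 for Wdr45. The fixed partners of the Beclin 1 complex did not pass. Pik3c3, the lipid kinase, stood at 18.6 against 19.5 FPKM, and its scaffold Pik3r4 at 8.39 against 10.4 FPKM. Atg14, the subunit that directs the kinase to autophagy, listed as D14Ertd436e, stood at 2.94 against 4.66 FPKM (log2 -0.66, implied SE 0.30, the authors' deposited table gives q = 0.120). Tfeb, a transcription factor of lysosome and autophagy genes, was low in both genotypes, at 0.522 against 1.52 FPKM (log2 -1.54, implied SE 0.71, the authors' deposited table gives q = 0.128).

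**Figure D4:**
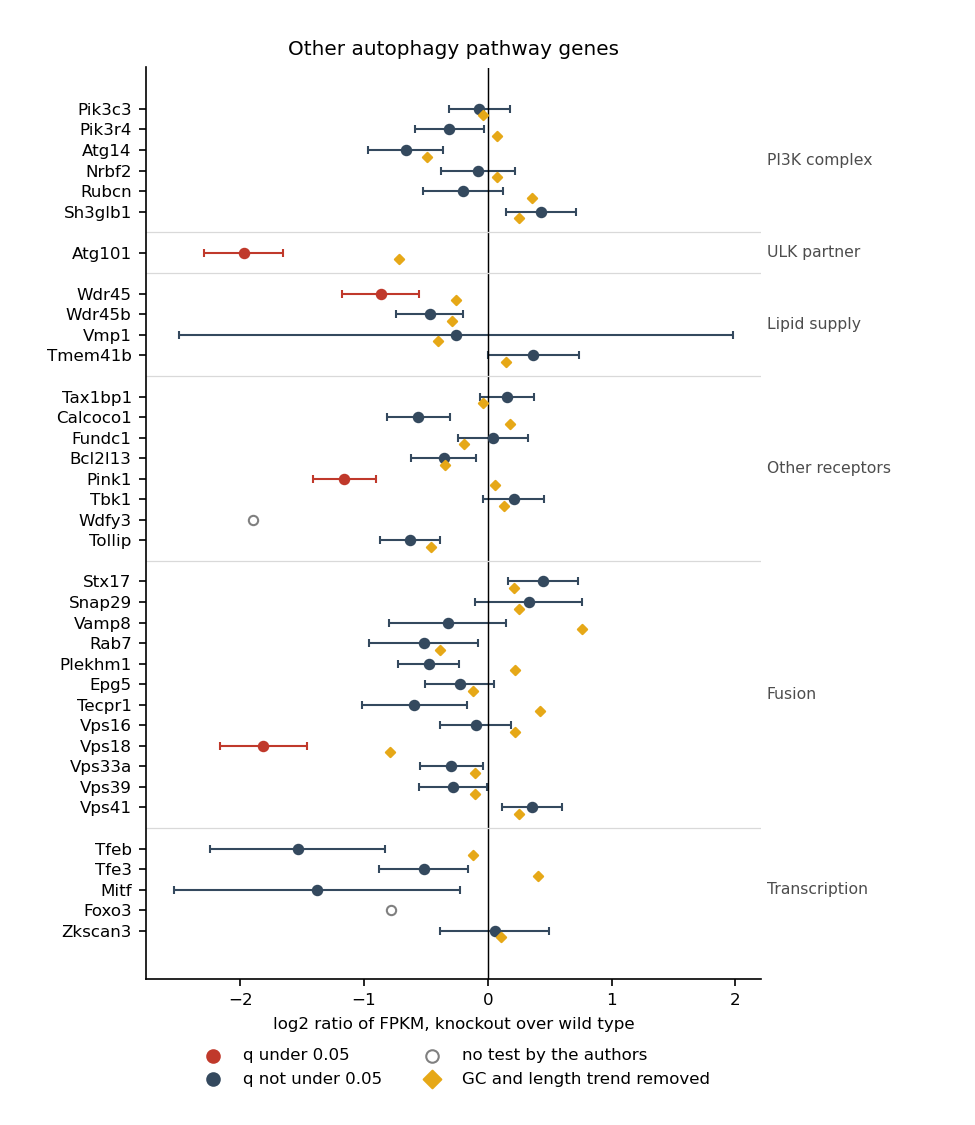
Log2 ratio of FPKM, knockout over wild type, for 36 of the 37 other autophagy pathway genes (Park2, listed at 0 in both genotypes, is left out), with the same symbols and bars as for the autophagy genes. The 4 red points are Atg101, Vps18, Pink1 and Wdr45, all below 0, and the bar of Vmp1 is the widest.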

How the data were processed

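RNA of sorted thymocytes from 3 knockout and 3 wild type libraries was measured by sequencing. Per the submitters' processing notes, reads were aligned with TopHat2 to mm9. Which tools counted and tested, which annotation was used and how multiply aligned reads were treated was sought in the labels and headers (not given in the sources used here). Per the file headers, the table holds the authors' FPKM per genotype, a log2 ratio, a test statistic, a p-value and a q-value, which matches a Benjamini-Hochberg adjustment over the 13834 tested models. Depth is unknown, and no test was run on libraries, since single libraries are not shown.

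The named genes were all 33 listed members, 4 fixed partners (Pik3c3, Pik3r4, Atg14, Tfeb), the other pathway genes past the threshold (up to 6 per direction), and Cd4, Cd8a, Rag1 and the highest marker of each other cell type. The list of mature thymocyte markers is not reported here. Ehd1, Kri1, AK216578, AK076660, linc-Map1lc3b-AS, Itgam, Foxn1, Kit, Cd44 and Vmp1 were named after their values were seen. Members and lists were chosen with earlier results of these data known. Older names were resolved through RefSeq synonyms. GC content and length came from 1 GENCODE M21 (GRCm38) coding transcript per gene, left out where longer than 1.2 times the model. The trend was a robust regression on cubic splines with 5 pieces each (statsmodels 0.14.6), fitted to 8901 genes of at least 1 FPKM. The code was run on data simulated from the fitted trend itself, which cannot show whether that trend or the implied SE suits these data. Other thresholds, centring, a pseudocount of 1 FPKM and summed rows were tried as alternatives.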

Additional observations from a re-analysis of the deposited data

How the results depend on the processing

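Of the 28 tested autophagy genes, 4 passed as deposited, 2 (Atg2a and Map1lc3a) at a q under 0.01 and 0 of the 27 with a trend value (Atg4c has none) after the trend with GC content and length was removed. Of the 34 other pathway genes 4 passed as deposited and 0 of 33 after that removal. The counts stayed within 1.5 times of the deposited ones at a q under 0.1, after centring and over models of at least 1 FPKM. So did that of the autophagy genes with Atg13 and Ambra1 added, an alternative chosen after seeing the data. In the whole table, 17.1% of 13834 tested models passed as deposited and 1.8% of 8901 genes after the removal. Shares at the other settings are not given here, so the counts there are not a result about these genes. Removing the trend turned the sign for 10 genes that were tested: Map1lc3a (0.41), Atg9a (0.78), Gabarapl1 (0.32), Ambra1 (0.29), Atg16l1 (0.24), Sqstm1 (0.21), Uvrag (0.12), Atg13 (0.077), Atg2b (0.034) and Atg10 (-0.060). Centring on the median of all models turned 5 that had lain near 0: Bnip3 (0.14), Uvrag (0.14), Atg2b (0.11), Atg4a (0.070) and Atg12 (0.049). Of all these genes, only Map1lc3a had passed as deposited. A pseudocount of 1 FPKM moved each of 30 ratios by less than its implied SE, and summing the rows of a symbol changed none, since each had 1 row. No paired analysis was possible because the table gives 1 value per genotype, and for the same reason no replicate was left out. Depth is unknown, so the limit it sets is seen only through the implied SE.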

Other observations

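The promoters of the autophagy genes were searched for CACGTG, the core of the element bound by the TFEB family, which reads the same on both strands. In windows from 250 bases before to 50 after the start site (RefSeq, GRCm38.p6), it occurred in 4 of 30 promoters of 27 members (13.3%), against 7.15% of 32851 promoters of the same length. The genes were Atg3, Atg5, Atg7 and Bnip3, and Atg3 had 2 matches. None of these 4 passed the threshold between the genotypes, beside 17.1% of all tested models, and 4 genes are too few to read this as a result.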
